A study of Mus musculus with 4 samples.

Results

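The matrix metalloproteinases (Mmp genes), the tissue inhibitors of metalloproteinases (Timp genes) and the ADAMTS proteases (Adamts genes) were read in 4 arrays of Deaf-1-null mouse mammary cells. Members were all probe sets, groups of short oligonucleotides that read 1 transcript, whose single gene symbol was Mmp, Timp or Adamts followed by a number, with the a or b of Mmp1a and Mmp1b. The probe set with the highest mean over the arrays stood for its gene. This gave 37 genes of 18193 on the array, 18 Mmp, 4 Timp and 15 Adamts, out of 70 probe sets with such symbols among 45037 tested. RefSeq lists 46 mouse symbols of this form, and the other 9, among them Mmp15, Mmp28 and Adamts2, were not analysed here.

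The cells were mammary epithelial cells (MECs) taken from Deaf-1-/- females aged 8 weeks, immortalised with a retrovirus carrying the E6 and E7 proteins of a human papilloma virus, and grown as clones E1 and C1. Each clone was infected with a retrovirus encoding Deaf-1, a transcription factor, or with the empty control retrovirus, and the time-point is given as 48 hours of puromycin selection. The arrays are therefore E1 with Deaf-1, E1 control, C1 with Deaf-1 and C1 control, and every cell, controls included, lacks the endogenous gene and carries E6 and E7. Each side of the clone comparison is 1 clone. The p-values of this comparison reflect how far the clone difference varied between the retroviruses, moderated over all probe sets. They say nothing of variation among clones or mice. The study's results name a single mouse as the source and its methods name mice.

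Matrix metalloproteinases are zinc enzymes that are made as inactive precursors and cut collagens, gelatin, laminin and other proteins of the extracellular matrix. TIMPs bind the active enzymes and block them, and TIMP3 also blocks several ADAMTS proteases, which cut the large matrix proteoglycans, trim procollagens or act on microfibrils. In the mammary gland these enzymes are known for remodelling of the stroma during branching and for removal of basement membrane during involution.

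Values are RMA expression on a log2 scale, so a difference of 1 is a doubling of the signal, and levels of different probe sets are not set against each other. They ran over all probe sets from 1.75 to 13.63, with array medians of 3.77 to 3.87. A background level of 3.84 was taken from 43 probe sets of olfactory receptors. The array correlation was 0.992 within E1 and 0.994 within C1, but 0.976 to 0.983 between clones. Deaf1 itself (1448446_at) read 6.25 with the Deaf-1 retrovirus and 4.91 with the control retrovirus in E1, and 6.73 and 5.01 in C1. No source used here states whether this probe set lies in the disrupted stretch, so it checks the labels only through the gain with the retrovirus. The RNA bore out the epithelial label only in part. The luminal markers Krt18, Cdh1, Cldn4 and Cldn7 and the basal markers Krt14 and Krt17 lay below background on all 4 arrays, and Krt8 reached 4.01 at most. Above it on all 4 were Epcam at 5.81 to 6.33, Cldn3 at 5.19 to 5.88, Krt19 at 4.37 to 4.62, Krt5 at 4.45 to 4.74 and Trp63 at 3.87 to 4.43. Cnn1 read 6.14 to 7.81 and Acta2, of myoepithelial cells and myofibroblasts, 11.46 to 11.83. In all, 4 of 8 luminal and 4 of 8 basal or myoepithelial markers were above background in at least 1 clone. All 8 fibroblast markers were so, with Col1a1 at 12.49 to 12.82 and Pdgfra at 10.88 to 11.25. Their summed linear level was 33064 to 35129 in E1 and 30738 to 31743 in C1, that of the basal or myoepithelial markers was 2970 to 3092 in E1 and 3738 to 3952 in C1, and that of the luminal markers 159 to 198 in E1 and 160 to 190 in C1. Among these markers the E1 minus C1 difference was -2.82 for Lum, -1.51 for Cnn1 and 0.83 for Pdgfrb. A summed level leans on the brightest probe sets of its list. That of the basal or myoepithelial markers was mostly Acta2 (E1 minus C1 difference -0.31), so it is no measure of basal cells. Sums are read between the clones and not between lists. Of 7 leukocyte markers 2 were above background, Csf1r at 5.81 to 6.30 and Cd14 at 4.27 to 4.64, and of 5 endothelial markers 2 were so, Tek at 6.38 to 7.29 and Kdr at 4.20 to 4.24. The summed linear level was 117 to 140 in E1 and 122 to 138 in C1 for the leukocyte markers, and 199 to 200.02 in E1 and 128 to 164 in C1 for the endothelial markers. The defining markers Ptprc of leukocytes and Pecam1 and Cdh5 of endothelium were below background on all arrays, as were all 3 measured adipocyte markers. The part of such cell differences in the values below was not tested, and fewer cells of a type cannot be told apart from less RNA per cell.

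Of the 37 members, 28 lay above background on both arrays of at least 1 clone (13 Mmp, 3 Timp and 12 Adamts), and 24 of these did so on all 4 arrays. The 9 members below background on every array were Mmp1a, Mmp1b, Mmp12, Mmp16, Mmp20, Timp4, Adamts8, Adamts18 and Adamts19, with values between 1.99 and 3.60. Mmp1a and Mmp1b, the rodent counterparts of human interstitial collagenase, are close copies that short probes may not tell apart. Mmp12 encodes macrophage elastase and Mmp20 enamelysin, a protease of developing tooth enamel. A change of these 9 transcripts could not be detected at such levels.

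**Figure D1:**
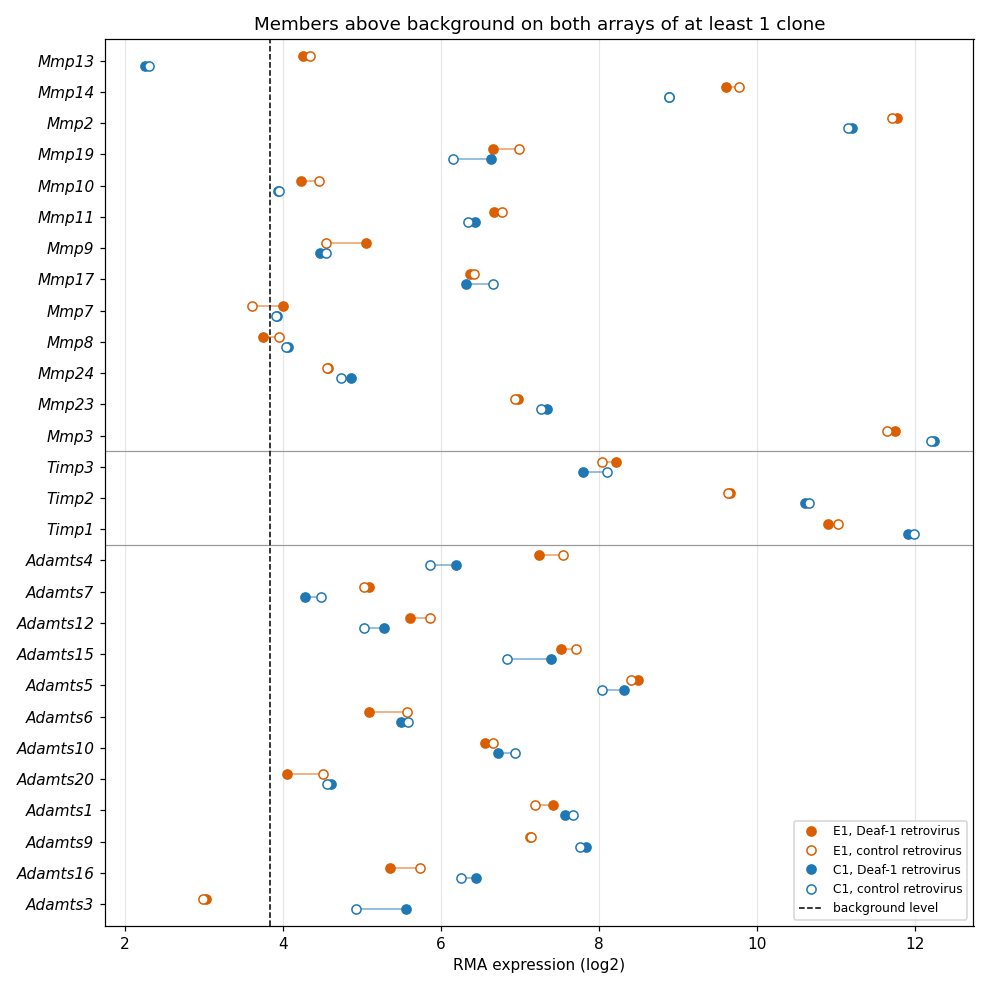
RMA expression (log2, horizontal axis) of the 28 members above background on both arrays of at least 1 clone, with E1 in orange and C1 in blue, the Deaf-1 retrovirus as filled and the control retrovirus as open circles; a line connects arrays from 1 clone, and the dashed vertical is the background of 3.84. For Mmp13 the C1 arrays and for Adamts3 the E1 arrays lie left of the background line.

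The first comparison is that of the clones. At an unadjusted p under 0.01 from limma, with the retrovirus in the model, 7 of 37 members (18.9%) differed between E1 and C1, beside 6.95% of all genes. Higher in E1 were Mmp13, Mmp14 and Adamts4 (8.11% of members, beside 3.48% of all genes), and lower in E1 were Timp1, Timp2, Adamts3 and Adamts9 (10.8%, beside 3.47%). At an unadjusted p under 0.05 there were 12 members (32.4%, beside 17.9%), 6 higher and 6 lower. No member reached an adjusted p under 0.05 from limma, beside 0.176% of all genes, and the smallest adjusted p were 0.0535 for Mmp13 and 0.0680 for Adamts3. The count of 0 depended on the processing, and alternatives gave between 0 and 8 members, with 5 after each of quantile normalisation, median centring and cyclic loess. Both E1 arrays lay above both C1 arrays for 13 members (35.1%, beside 26% of all genes) and below them for 14 (37.8%, beside 25.8%), and the arrays of the clones overlapped for 10. The median size of the difference was 0.32 over the members and 0.19 over all genes, and the median signed difference was -0.01 and 0.02.

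**Figure D2:**
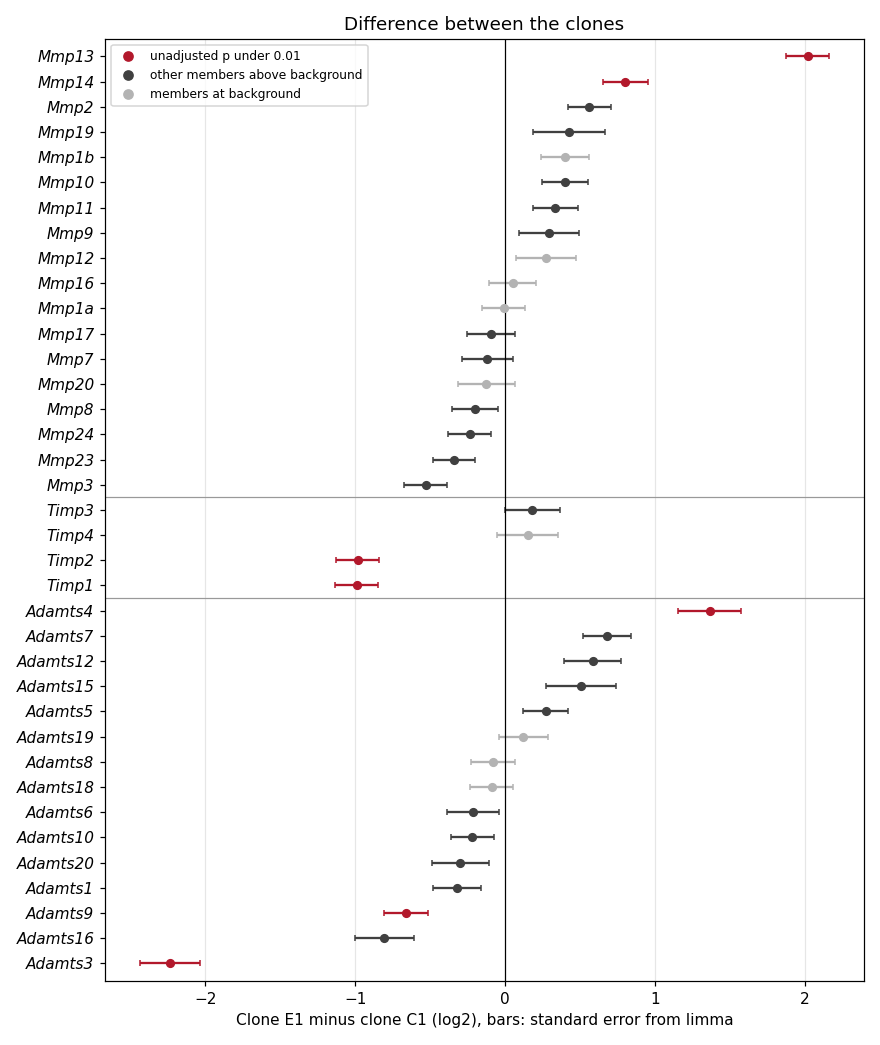
Difference in RMA expression between clone E1 and clone C1 (log2, horizontal axis) for the 37 members, with bars of 1 standard error from limma, grouped as Mmp, Timp and Adamts and ordered by size. Red points have an unadjusted p under 0.01, and pale points are members at background; Timp1 and Timp2 lie near -1, and Mmp13 and Adamts3 are drawn at 2.02 and -2.24, each with 1 clone below background.

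Mmp13 was above background in E1 alone. It encodes collagenase-3, a main secreted enzyme for fibrillar collagen in mice. Its probe set (1417256_at) read 4.25 with the Deaf-1 retrovirus and 4.34 with the control retrovirus in E1, against 2.25 and 2.31 in C1. Both E1 arrays were thus a little above background and both C1 arrays well below it. The means were 4.30 ± 0.066 in E1 and 2.28 ± 0.042 in C1 (SD, n = 2 arrays each), and the difference was 2.02 (standard error 0.14). As C1 gives only a bound, the E1 signal was at least 1.37-fold higher than that of C1, counted from the background level. The difference was 2.00 within the Deaf-1 arrays and 2.04 within the control arrays.

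Mmp13 lies at 1 end of a run of Mmp genes on chromosome 9. From it to Mmp7 the RefSeq table places 10 coding genes, all of them Mmp, in the order Mmp13, Mmp12, Mmp1b, Mmp3, Mmp1a, Mmp10, Mmp8, Mmp27, Mmp20 and Mmp7. Of these, 9 are members and 5 were above background in at least 1 clone. Mmp3 encodes stromelysin-1, which cuts proteoglycans and laminin and activates other pro-enzymes. It read 11.75 and 11.65 in E1 with the Deaf-1 and the control retrovirus, against 12.25 and 12.21 in C1, and both E1 arrays were lower (difference -0.53, standard error 0.14, adjusted p = 0.233). Mmp10, stromelysin-2, read 4.23 and 4.46 in E1 against 3.93 and 3.95 in C1 (difference 0.40, adjusted p = 0.359), with both E1 arrays higher. Within this gene cluster Mmp13 and Mmp10 were thus on the higher side in E1 and Mmp3 on the lower side. The C1 readings of Mmp10 lay close to the background level. The collagenase Mmp8, known from neutrophils, read 3.75 and 3.95 in E1 against 4.07 and 4.04 in C1, with both E1 arrays lower (difference -0.20). Matrilysin, encoded by Mmp7 and secreted by glandular epithelia, read 4.00 and 3.60 in E1 against 3.92 and 3.92 in C1. Both genes stayed close to the background level on all 4 arrays.

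RefSeq promoter windows, 250 bases before to 50 after a gene's start on GRCm38.p6, were on hand for 23 members in 26 windows. The stretches of cluster genes that follow have motif matches in capitals. The motifs are TGANTCA (the AP-1 site, which reads alike on both strands), AGGAAG (the PEA3 or ETS site) and TATAAA (the TATA box). All of these stretches hold TGANTCA and TATAAA, unlike the cluster genes Mmp8, with neither, and Mmp12, without TATAAA. Each stretch is the 130 bases up to the start, on the + strand.
Mmp13, chr9:7272384-7272513: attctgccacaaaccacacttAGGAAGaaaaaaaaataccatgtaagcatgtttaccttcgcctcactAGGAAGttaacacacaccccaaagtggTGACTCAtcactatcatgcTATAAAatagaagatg
Mmp3, chr9:7445692-7445821: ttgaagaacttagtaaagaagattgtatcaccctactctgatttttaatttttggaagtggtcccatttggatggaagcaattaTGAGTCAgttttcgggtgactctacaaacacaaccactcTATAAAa
Mmp10, chr9:7502212-7502341: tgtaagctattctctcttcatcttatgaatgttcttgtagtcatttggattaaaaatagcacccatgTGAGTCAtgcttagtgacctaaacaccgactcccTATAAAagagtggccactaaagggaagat
Mmp1a, chr9:7464011-7464140: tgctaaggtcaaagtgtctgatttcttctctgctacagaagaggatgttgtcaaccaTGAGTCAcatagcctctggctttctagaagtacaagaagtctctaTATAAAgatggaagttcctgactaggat
Counted from the start, the AP-1 letters begin at base -35 in Mmp13, -46 in Mmp3, -63 in Mmp10 and -73 in Mmp1a, and in each a TATA box follows nearer the start. Mmp13 was above background in E1 alone, and Mmp3 and Mmp10 were above it in both clones. Mmp1a, Mmp1b and Mmp20, with the same pair of motifs, were below it on every array. A match describes the letters and not a bound site.

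Searched on both strands over the 250 bases upstream, TGANTCA was found in 8 of 23 members (34.8%), beside 6.75% of all 32851 promoters of that length. TATAAA was found in 8 members (34.8%, beside 12.4%) and AGGAAG in 11 (47.8%, beside 29.5%). A member counts once if any of its windows holds the match, whereas the share of all promoters is counted by window. The units thus differ for the 3 members with more than 1 window. No match overlapped another. All 8 members with TGANTCA belong to the chromosome 9 cluster, where 9 members have a window, and 7 of those 9 hold TATAAA as well. Of the 14 members elsewhere none held TGANTCA and 1, Adamts1, held TATAAA. Base composition differs along the same line, since G and C made up 37.2% to 53.2% of the upstream bases of cluster windows and 53.6% to 79.2% of the others. Among members with clone differences outside the cluster the share was 54.4% in Timp1 and 55.2% in Mmp14, close to the cluster's highest. It was 68% in Timp2, 78% in Adamts3 and 71.2% in Adamts9, which is not printed. The others follow, with matches again in capitals, and Timp2 and Adamts3 read on the - strand.
Mmp14, chr14:54431348-54431597: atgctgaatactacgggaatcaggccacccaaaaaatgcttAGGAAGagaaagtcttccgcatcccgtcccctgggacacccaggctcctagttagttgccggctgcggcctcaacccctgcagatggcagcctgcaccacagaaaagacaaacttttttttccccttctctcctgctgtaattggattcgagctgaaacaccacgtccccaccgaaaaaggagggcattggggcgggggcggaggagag
Timp1, chrX:20869916-20870165: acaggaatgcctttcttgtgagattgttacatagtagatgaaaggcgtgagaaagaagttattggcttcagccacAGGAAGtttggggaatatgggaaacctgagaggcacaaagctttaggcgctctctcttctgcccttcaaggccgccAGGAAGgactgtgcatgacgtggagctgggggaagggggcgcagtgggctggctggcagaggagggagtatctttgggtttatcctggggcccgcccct
Timp2, chr11:118355412-118355541: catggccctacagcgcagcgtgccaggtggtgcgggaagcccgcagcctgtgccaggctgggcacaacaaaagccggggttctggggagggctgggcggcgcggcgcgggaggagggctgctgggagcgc
Adamts3, chr5:89883335-89883464: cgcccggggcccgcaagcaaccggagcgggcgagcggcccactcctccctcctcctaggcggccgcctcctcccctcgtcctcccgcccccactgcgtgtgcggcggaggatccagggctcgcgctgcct
Mmp14 holds 1 match to AGGAAG and Timp1 holds 2, and no searched motif occurs in the upstream bases of Timp2 or Adamts3. No Adamts4 window was used here.

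**Figure D3:**
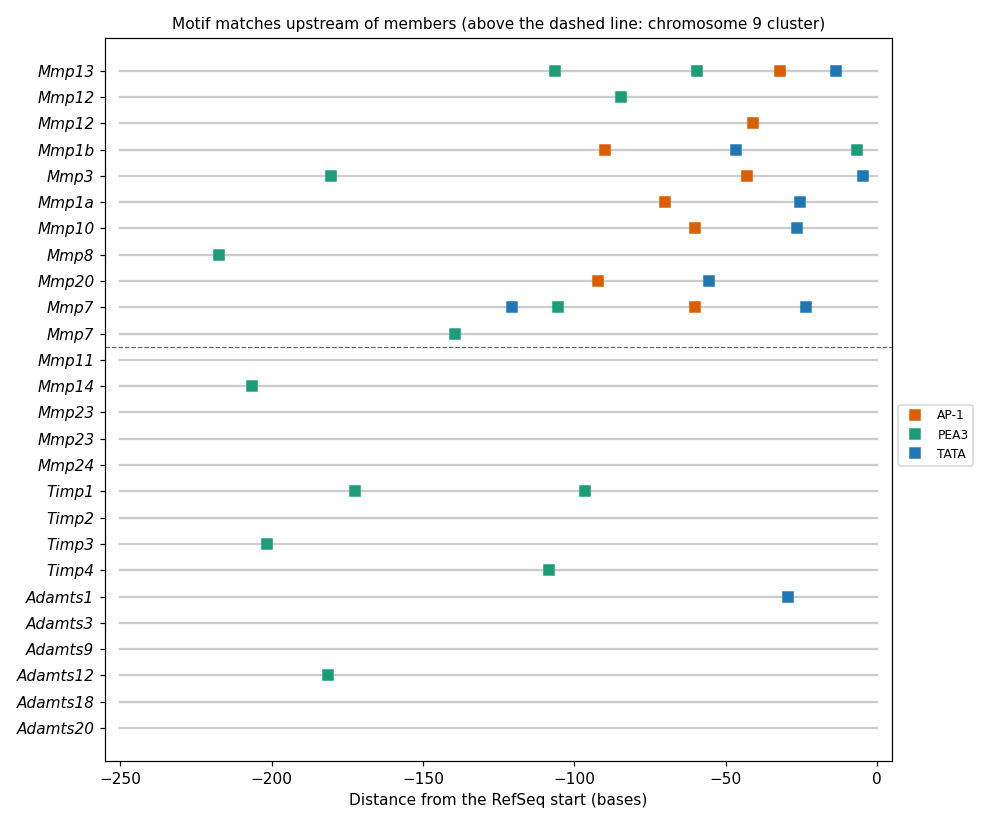
Matches to the AP-1 (orange), PEA3 (green) and TATA (blue) motifs in the 250 bases before the RefSeq start (horizontal axis, bases from the start) of the 26 promoter windows of 23 members. Rows above the dashed line are the chromosome 9 cluster, which holds all of the AP-1 matches.

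The gelatinase Mmp2 and its activator were both on the higher side in E1. Mmp14 encodes membrane-type 1 metalloproteinase, which cuts collagen at the cell surface and, together with TIMP2, activates the precursor of Mmp2. Its probe set (1448383_at) read 9.61 and 9.77 in E1 with the Deaf-1 and the control retrovirus, against 8.89 and 8.88 in C1. The difference of 0.80 (standard error 0.15, adjusted p = 0.146) is 1.74-fold, with 0.72 within the Deaf-1 arrays and 0.89 within the control arrays. The other Mmp14 probe sets gave 0.74 and 0.60. Leaving out either C1 array raised the unadjusted p of Mmp14 above 0.01.

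Mmp2, gelatinase A, read 11.77 and 11.72 in E1, against 11.20 and 11.16 in C1. Its difference was 0.56 (standard error 0.14, adjusted p = 0.214), or 0.58 at a second probe set, and the arrays of the clones did not overlap. Mmp9, gelatinase B, read 5.05 and 4.55 in E1, against 4.47 and 4.54 in C1, and the higher E1 reading was that of the Deaf-1 array. Unlike Mmp2, this gene had control arrays that differed by 0.01 between the clones. Mmp11 encodes stromelysin-3, an enzyme of stromal cells that leaves the cell in active form. It read 6.68 and 6.77 in E1, against 6.43 and 6.35 in C1 (difference 0.33, adjusted p = 0.427). Mmp19 read 6.66 and 6.98 in E1, against 6.63 and 6.16 in C1, and its second probe set gave 0.60 beside 0.43.

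The remaining metalloproteinases above background were Mmp17, Mmp23 and Mmp24. Mmp17, a membrane-type enzyme held by a lipid anchor, read 6.36 and 6.42 in E1, against 6.31 and 6.66 in C1. The clones overlapped in this gene (difference -0.09, 95% interval -0.52 to 0.34). Mmp23 read 6.98 and 6.94 in E1, against 7.34 and 7.27 in C1, with -0.34 and -0.32 at its probe sets. Mmp24, the membrane-type 5 enzyme known from the nervous system, read 4.57 and 4.56 in E1, against 4.87 and 4.74 in C1. Its second probe set above background (1417678_at) had the opposite sign, 0.35 beside -0.24, and 5.01, 4.25, 4.06 and 4.49 in the same order of arrays. No direction is given for Mmp24.

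Timp1 and Timp2, which encode soluble inhibitors, were both lower in E1. TIMP1 inhibits most secreted metalloproteinases. Timp1 (1460227_at) read 10.90 and 11.03 in E1 with the Deaf-1 and the control retrovirus, against 11.92 and 11.99 in C1. Its means were 10.96 ± 0.086 in E1 and 11.95 ± 0.046 in C1 (SD, n = 2 arrays each), so the C1 signal was 1.99-fold that of E1 (difference -0.99, standard error 0.14, adjusted p = 0.117). The difference was -1.02 within the Deaf-1 arrays and -0.96 within the control arrays.

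TIMP2 blocks the same enzymes and also serves as the bridge through which Mmp14 activates Mmp2. Timp2 (1460287_at) read 9.66 and 9.64 in E1, against 10.61 and 10.66 in C1 (difference -0.98, standard error 0.14, adjusted p = 0.119). Of its 5 other probe sets, 4 were above background and gave differences of -0.88, -0.88, -1.02 and -0.94. TIMP3, which is bound to the matrix and also inhibits ADAMTS4 and ADAMTS5, did not show this pattern. Timp3 (1449335_at) read 8.22 and 8.05 in E1, against 7.80 and 8.11 in C1, and the clones overlapped. Its difference was 0.18 (95% interval -0.32 to 0.68), and its other probe sets gave 0.01, 0.01 and -0.01. Timp4 was at background.

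Adamts3 was above background in C1 alone. It encodes an enzyme that removes the amino-terminal propeptide of fibrillar procollagens and takes part in processing of a lymphatic growth factor. Its probe set (1441693_at) read 3.03 and 2.98 in E1 with the Deaf-1 and the control retrovirus, against 5.55 and 4.93 in C1. Both E1 arrays were below background and both C1 arrays above it. The means were 3.003 ± 0.031 in E1 and 5.24 ± 0.44 in C1 (SD, n = 2 arrays each), a difference of -2.24 (standard error 0.20). Since E1 gives only a bound, the signal in E1 was at least 2.64-fold lower. The difference was -2.53 within the Deaf-1 arrays and -1.95 within the control arrays. Its second probe set was at background on all arrays.

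The aggrecanases, which cut aggrecan, versican and related proteoglycans, did not differ between the clones in 1 direction. Adamts4, aggrecanase-1, read 7.24 and 7.55 in E1, against 6.19 and 5.86 in C1. It was the clearest of them, 2.58-fold higher in E1 (difference 1.37, standard error 0.21, adjusted p = 0.126), with 1.01 at a second probe set. The difference was 1.05 within the Deaf-1 arrays and 1.68 within the control arrays. Adamts5, aggrecanase-2, read 8.50 and 8.40 in E1, against 8.32 and 8.04 in C1 (difference 0.27, adjusted p = 0.529), with 0.40 and 0.23 at its other probe sets above background. Adamts15 read 7.52 and 7.72 in E1, against 7.39 and 6.83 in C1. These genes had both E1 arrays above both C1 arrays.

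Adamts9, which cuts versican and aggrecan, went the other way. It read 7.13 and 7.15 in E1, against 7.84 and 7.76 in C1 (difference -0.66, standard error 0.14, adjusted p = 0.180). A second Adamts9 probe set (1430352_at), was below background on both E1 arrays and at least 1.38-fold lower in E1. Leaving out any 1 array raised the unadjusted p of Adamts9 above 0.01. Adamts1, another versican-cutting enzyme, read 7.41 and 7.19 in E1, against 7.57 and 7.67 in C1 (difference -0.32). Adamts20, which acts on versican in skin and palate, read 4.05 and 4.51 in E1, against 4.61 and 4.55 in C1.

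Adamts7 and Adamts12, which cut cartilage oligomeric matrix protein, were both on the higher side in E1. Adamts7 read 5.09 and 5.03 in E1, against 4.28 and 4.48 in C1 (difference 0.68, adjusted p = 0.191). Adamts12 read 5.61 and 5.87 in E1, against 5.28 and 5.03 in C1 (difference 0.58, adjusted p = 0.294). Adamts6 and Adamts10 are a related pair known to act on fibrillin microfibrils. Adamts6 read 5.09 and 5.57 in E1, against 5.50 and 5.59 in C1, and the clones overlapped. Adamts10 read 6.56 and 6.67 in E1, against 6.73 and 6.94 in C1, with -0.22 at this probe set and no difference at its second. Adamts16 read 5.36 and 5.73 in E1, against 6.44 and 6.26 in C1 (difference -0.81, adjusted p = 0.204), but its second probe set above background gave 0.07.

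Second probe sets are a further reading of the same RNA, not of other cells. Of 33 such probe sets of 19 members, 19 were above background in at least 1 clone. In 15 of the 19 the sign of the clone difference was that of the first probe set, in 3, those of Adamts16, Mmp24 and Timp3, it was opposite, and in 1, that of Adamts10, the difference was under 0.001 in size.

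**Figure D4:**
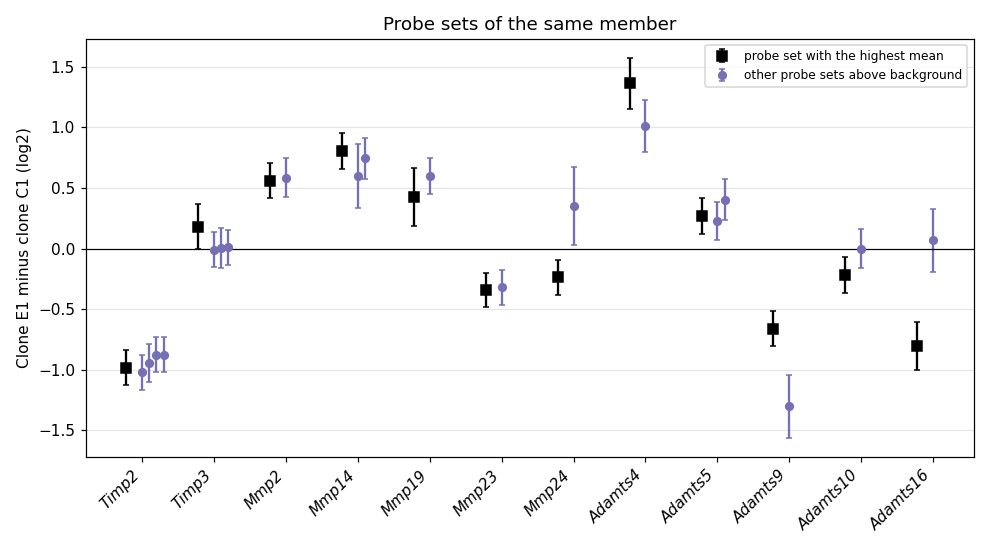
Difference in RMA expression between clone E1 and clone C1 (log2, vertical axis, bars of 1 standard error from limma) at the first probe set (black squares) and at the other probe sets above background (violet circles) of the 12 members that have any. All Timp2 probe sets shown lie between -0.88 and -1.02, while those of Mmp24 and Adamts16 fall on both sides of 0.

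Genes that act with these proteases were counted at an unadjusted p under 0.01 (beside 3.48% of all genes higher and 3.47% lower). Of 10 measured activators and cell-surface regulators, 3 were higher and 1 was lower in E1, with a median difference of 0.01. Pcsk5, a proprotein convertase, read 4.72 and 4.77 in E1, against 3.67 and 3.56, below background, in C1, at least 1.87-fold higher. Thbs1 and Thbs2, thrombospondins that bind Mmp2, had differences of 0.83 and 0.74, and Bsg, a cell-surface inducer of metalloproteinases, -0.74. Of 12 ADAM proteases and ADAMTS-like proteins 2 were lower, Adamtsl4 (-2.14), a fibrillin-associated protein without protease activity, and Adamtsl1 (-0.79), and the median was -0.22.

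Of 9 cathepsins and cystatins 2 were higher, Ctsh (1.43) and the collagen-cutting Ctsk (0.87), with a median of 0.18. Of 10 members of the plasminogen system, the other main route of matrix proteolysis, and of 8 proteoglycan substrates and link proteins, none passed, at medians of 0.03 and 0.36. At an unadjusted p under 0.05 (17.9% of all genes) there was none of the plasminogen genes and 2 of the substrates and link proteins, Vcan and Hapln4, both higher. Among the substrates Vcan, which encodes versican, read 10.63 and 10.60 in E1, against 10.12 and 10.09 in C1. Of 12 AP-1 and ETS factors 3 were lower in E1 and none was higher, with a median of -0.21. Junb (-0.96) and Jund (-0.72) encode subunits of AP-1, and Etv5 (-1.57) an ETS factor of the PEA3 group. Fosl1, another AP-1 subunit, read 7.32 and 7.32 in E1, against 6.77 and 7.02 in C1. Ets1, an ETS factor that did not pass, read 7.37 and 7.91 in E1, against 6.997 and 6.54 in C1 (difference 0.87, adjusted p = 0.293), and Ets2 gave 0.41. No gene of these lists had an adjusted p under 0.05 from limma.

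The series asks which genes differ when Deaf-1 is put back. None of the 37 members did so by limma at an unadjusted p under 0.01 (0.0275% of all genes) or under 0.05 (0.407%), with the clones as replicates. With clone as a block, which compares the retroviruses within each clone, the count was again 0 at both levels (0.044% and 0.797% of all genes). The smallest p from limma was 0.209 without the block, for Adamts6, and 0.167 with it, for Adamts3, and every adjusted p was 1 in both fits. These values are of the first probe sets, where the differences ran from -0.29 to 0.33, and their median size was 0.073, beside 0.092 over all genes. The 95% intervals of the members with the block lay between -0.76 and 0.88, and changes inside those bounds were not detectable for some of them. Deaf1 differed by 1.53 (standard error 0.21) in the fit without the block, with a t of 7.12 and a p of 0.0012 from limma. The study reports a larger t and a smaller p for the same Deaf1 probe set and difference. Its test statistics were thus not reproduced, and at this probe set the test used here was the more conservative.

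Both Deaf-1 arrays lay above both control arrays for 1 of 37 members, Mmp7 (beside 8.18% of all genes). They lay below them for 3 of 37, Adamts6, Mmp17 and Mmp1a, near the share of 7.94% of all genes. Mmp1a is at background. The change had the same sign in both clones for 15 members, 7 higher and 8 lower, and opposite signs for 22 (59.5%, beside 62.2% of all genes).

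**Figure D5:**
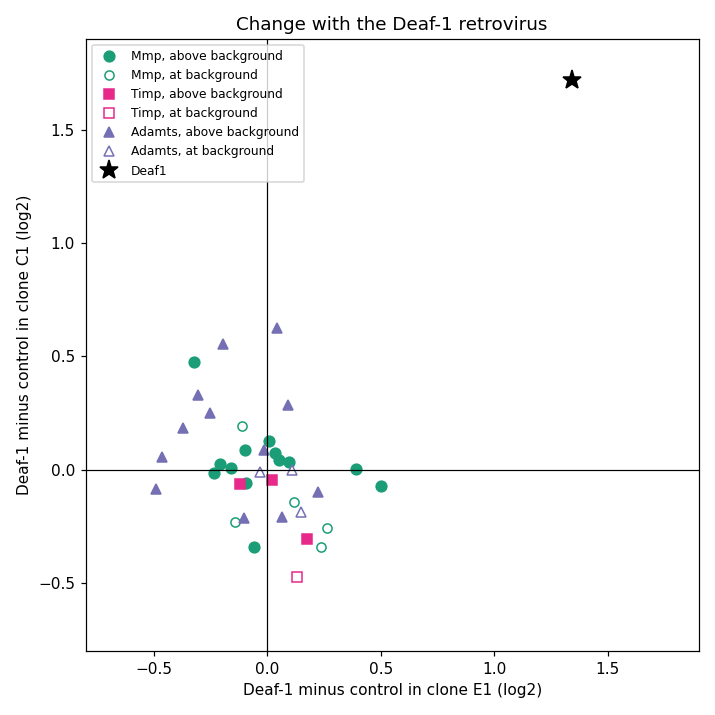
Difference between the Deaf-1 and the control retrovirus in RMA expression (log2) in clone E1 (horizontal axis) and clone C1 (vertical axis) for the 37 members, by family, with open symbols for members at background and a star for Deaf1. The members gather around 0, with none near Deaf1 at 1.34 in E1 and 1.72 in C1.

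Among the members above background whose first probe set moved alike in both clones, the highest moderated t belonged to Mmp7, Adamts5 and Mmp24. Mmp7 differed by 0.39 in E1 and by 0.00 in C1, at readings close to background. Adamts5 differed by 0.09 in E1 and 0.28 in C1 (mean 0.19, standard error 0.19), and Mmp24 by 0.01 and 0.13. For Mmp24 the sign turned when the Deaf-1 array of C1 or the control array of E1 was left out. On the lower side were Adamts6 with -0.49 in E1 and -0.09 in C1 (mean -0.29, standard error 0.20), Mmp17 with -0.06 and -0.34 (mean -0.20, standard error 0.16) and Adamts10 with -0.10 and -0.21. With 1 array left out the difference ran from 0.0031 to 0.37 for Adamts5, from 0.041 to 0.35 for Mmp7, from -0.49 to -0.079 for Adamts6, from -0.32 to -0.082 for Mmp17 and from -0.30 to -0.020 for Adamts10, and none of these passed the test. The moderated t of Adamts6 was -1.46 and that of Mmp7 was 1.12. Second probe sets above background did not all move alike. That of Mmp24 (1417678_at) differed by 0.76 in E1 and -0.42 in C1, and that of Adamts10 (1441309_at) by -0.12 and 0.18. For Adamts5, 1450658_at gave -0.035 in E1 and 0.36 in C1, whereas 1456404_at gave 0.08 and 0.38. For Timp3, 1419088_at gave -0.33 in E1 and -0.32 in C1, and 1449334_at gave -0.32 and -0.22. Both had the Deaf-1 arrays below the control arrays and a smaller limma p than any first probe set, but neither passed the test. The first Timp3 probe set gave 0.17 in E1 and -0.31 in C1, and 1419089_at gave 0.24 and -0.12, so no direction is given for Timp3.

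At the first probe sets, larger single changes were found in 1 clone at a time. In C1 the Deaf-1 array was higher by 0.63 for Adamts3 and by 0.56 for Adamts15, where E1 gave 0.04 and -0.20. In E1 it was higher by 0.50 for Mmp9, where C1 gave -0.07. For Mmp13, Mmp14, Timp1 and Timp2 the differences between the retroviruses lay from -0.16 to 0.02 in either clone. The lists of regulators, substrates, cathepsins, plasminogen genes and transcription factors held no gene with an unadjusted p under 0.01, with or without the block. At an unadjusted p under 0.05 limma gave none without the block (0.407% of all genes) and 1 with it (0.797%), Fos, an AP-1 subunit that read 8.23 with Deaf-1 against 7.41 in E1 control cells and 8.50 against 8.01 in C1.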

How the data were processed

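Total RNA of each clone and retrovirus was hybridised to 1 Affymetrix mouse expression array, 4 in all. The deposited values are log2 expression, made by the authors with RMA, which corrects background, brings arrays to a common distribution and summarises each probe set; RMA and limma are named in the submitters' processing notes, with versions not given in the sources used here. No array was normalised again for the reported values. Array titles beginning with c or e were read as clones C1 and E1. Of 45101 probe sets, 64 controls were left out. Gene symbols came from the array's platform annotation (34945 probe sets with 1 symbol, 932 with several, 9160 with none), and positions and promoters from RefSeq on GRCm38.p6.

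Differences were fitted in R 4.3.3 with limma 3.58.1 (lmFit, eBayes), two-sided, over all 45037 probe sets, with Benjamini-Hochberg adjustment and no filter on low signal. E1 was compared with C1 with the retrovirus in the model. Deaf-1 was compared with control with the clones as replicates, as the study describes them, and with clone as a block. The block was used since arrays with the same number are of the same clone. An array's deviations from its group mean correlated at 0.54 with those of the other array of its clone. The fit without the block gave Deaf1 a larger p than the study reports, so the study's test was not reproduced. The study's threshold, an unadjusted p under 0.01, was used for the retroviruses. For the clones an adjusted p under 0.05 was planned, and the unadjusted p under 0.01 and the counts of arrays that do not overlap were added after seeing the data. The background level is the 95th percentile of the means of olfactory receptor probe sets. Prior degrees of freedom were 2.56 without and 3.21 with a second term, beside 2 and 1 residual degrees of freedom. The number of arrays limits the precision. The fits were tested on simulated data.

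The members, gene lists, motifs and markers were chosen with earlier results of these data known. Array values were given for members above background on both arrays of a clone. Named for the clones were the 4 such members with the largest difference, and for the retroviruses the 3 highest and 3 lowest moderated t among those that moved alike in both clones; others were named for their role or after their values were seen. A planned search for protein motifs was not run, since no protein table was used here. Alternatives were each array left out, a minimum mean at background or at 6, quantile normalisation, median centring and cyclic loess of the values, a prior that was robust or followed intensity, omission of the _x_at and _s_at probe sets, 1 probe set per gene, the block together with the background filter, and the clone comparison without retrovirus.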

Additional observations from a re-analysis of the deposited data

How the results depend on the processing

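The count of members at an adjusted p under 0.05 between E1 and C1, 0 as reported, was 1 with probe sets above background only (Adamts3), 2 with 1 probe set per gene (Adamts3 and Mmp13), 5 after quantile normalisation, median centring or cyclic loess (Timp1, Timp2, Adamts4, Adamts3 and Mmp13 each time), 7 with a mean of at least 6, and 8 when the prior followed intensity or without the retrovirus in the model; it stayed 0 with a robust prior, without _x_at and _s_at probe sets, and with 1 array left out, a fit that holds clone alone. At an unadjusted p under 0.01 the count of 7 was 11 after quantile normalisation and 11 without the retrovirus in the model. With 1 array left out, it was 5 to 7: Mmp14 was lost without either C1 array and Adamts9 without any 1 of the 4. Adamts9 was also lost with probe sets above background only, a filter that leaves Mmp13 out. The clone differences of the 7 named members kept their sign in every alternative that tested them, and the median difference of all genes moved most under median centring, by -0.022 for E1 against C1 and -0.021 for Deaf-1 against control.

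No alternative gave a member at an unadjusted p under 0.01 for Deaf-1 against control, the replicate block included (0), alone and with the background filter, and the prior that followed intensity gave 1 at an unadjusted p under 0.05. For Mmp24 the difference of 0.07 turned to -0.081 on leaving out the C1 array with Deaf-1 and to -0.021 on leaving out the E1 control array, with a range of -0.081 to 0.22 over the arrays left out, and these fits mix the clones unequally. With 2 arrays a side and about 50.5% of probe sets at most above background, small changes were not detectable, and members below 3.84 have no usable difference.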
